A study of Mus musculus with 19 samples.

Results

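Bcl11a and Bcl11b are the 2 members of the BCL11 family of zinc finger transcription factors, and both were taken by name from a table of 18607 genes, so that the members described here are 2 of 18607. The table came from RNA-seq of 19 libraries of lymphoid progenitors that were sorted from bone marrow of C57BL/6 mice, at 3 stages on the way to innate lymphoid cells (ILC), the lymphocytes of tissues that carry no rearranged antigen receptor. ALP, common lymphoid progenitors (7 libraries), were lineage-low and Ly-6D-low and carried Kit, IL-7Rα and high Flt3. EILP, early innate lymphoid progenitors (7 libraries), came from the same lineage-low, Ly-6D-low fraction, with Kit, high GFP, intermediate or low IL-7Rα, low CD122 and low Thy-1.2. ILCp, later ILC progenitors (5 libraries), had low CD122, Kit, high GFP, Thy-1.2, high IL-7Rα and the integrin α4β7. All ALP and EILP libraries and ILCp 1 to ILCp 3 came from Tcf7EGFP/+ mice, in which GFP reports Tcf7, whereas ILCp 4 and ILCp 5 came from Plzf-cre-GFP/+ mice, in which GFP reports Zbtb16 (PLZF). All mice therefore carried 1 reporter allele, and no library came from a mouse without one. Whether the libraries of 1 stage came from separate animals is not labelled, so the p-values measure the spread between these libraries, which may be technical.

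BCL11A and BCL11B bind DNA through C2H2 zinc fingers and recruit the deacetylase complex NuRD, and both have been found as subunits of the BAF (SWI/SNF) remodelling complex. BCL11A is known for silencing fetal globin genes and is required in lymphoid progenitors, B cells and plasmacytoid dendritic cells. BCL11B is required when T cell precursors commit to the T lineage, where it holds down genes of natural killer cells and stem-like precursors, and it maintains the identity of ILC2, the innate counterpart of type 2 helper T cells.

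In the GENCODE M21 annotation of GRCm38, Bcl11a (ENSMUSG00000000861.15) lies on the plus strand at chr11:24078056-24174123 with 6 annotated transcripts, and Bcl11b (ENSMUSG00000048251.15) lies on the minus strand at chr12:107910403-108003602 with 3. The coding sequences are shown because they set how well sequencing reads tell the paralogs apart. The longest coding sequence of Bcl11a holds 2505 bases and that of Bcl11b 2652, both counted without the stop codon, and 70.9% of the 2425 bases that align without a gap are identical. The first 60 coding bases, which encode the start of the proteins that contacts NuRD, differ at 19 positions, written in capitals.
Bcl11a: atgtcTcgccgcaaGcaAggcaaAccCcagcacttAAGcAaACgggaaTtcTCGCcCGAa
Bcl11b: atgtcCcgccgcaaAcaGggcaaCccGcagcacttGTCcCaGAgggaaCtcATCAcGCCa

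The most similar stretch of 90 coding bases, which runs into one of the C-terminal zinc fingers, differs at 12 positions (capitals). It lies at chr11:24164836-24164925 (plus strand) in Bcl11a and at chr12:107915656-107915745 (minus strand) in Bcl11b, within 1 exon of each gene.
Bcl11a: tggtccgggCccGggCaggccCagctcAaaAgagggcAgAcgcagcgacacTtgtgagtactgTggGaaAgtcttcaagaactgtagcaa
Bcl11b: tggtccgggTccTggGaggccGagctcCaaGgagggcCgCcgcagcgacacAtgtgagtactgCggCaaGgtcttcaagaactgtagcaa

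The longest identical run of the coding sequences was 23 bases, at chr11:24165098-24165120 in Bcl11a and chr12:107915461-107915483 in Bcl11b.
Bcl11a and Bcl11b: ACCCTGGAGAAACACATGAAAAA

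Over all annotated transcripts, untranslated parts included, the longest identical run was 26 bases. The antisense genes Gm12064 and 4930538E20Rik lie on the other strand inside the span of Bcl11a, and the library kits do not mark strand. Their highest levels over the 19 libraries were 0.48 and −0.51 log2 CPM, below the lowest Bcl11a level of 4.23.

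Levels below are the log2 CPM values (CPM is a scaling of reads to library size) deposited by the authors. From the values, the 5 batches named in the labels have equal means once stages are allowed for, so an SD leaves out the spread between batches. The values were thus shifted per gene and batch, and a difference of 2 genes within a library is one of deposited levels, not of reads. Counts were not used here, and library depth is unknown. Within a batch, libraries tied at the lowest value of a gene are said here to be at the zero level, and a stage is so called from the batches that hold 2 or more of its libraries. The summed CPM ran from 908573 to 1035200 per library, and a library's median correlation with the others of its stage ran from 0.744 in EILP 2 to 0.869 in ILCp 3. Batch 3 holds EILP 3 and EILP 4 alone, and with batch in the model these libraries enter the errors alone.

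Bcl11a was highest in ALP and Bcl11b in ILCp, so that the order of their deposited levels changed over the 3 stages. Bcl11a had a lowest level of 6.92, a median of 7.62 and a highest level of 7.89 log2 CPM in the 7 ALP libraries, and 5.23, 5.85 and 6.59 in the 7 EILP libraries. Its levels in ILCp 1 to ILCp 5 were 4.75, 5.05, 5.43, 5.54 and 4.23. Every EILP and every ILCp library lay below every ALP library, whereas EILP and ILCp overlapped, with 3 of 5 ILCp libraries below all EILP libraries. By mean and SD, Bcl11a stood at 7.47 ± 0.33 over 7 ALP libraries, 5.79 ± 0.44 over 7 EILP libraries and 5.00 ± 0.53 over 5 ILCp libraries.

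Bcl11b was at the zero level in ALP 2, ALP 3, ALP 5, ALP 6 and ALP 7. ALP 1 and ALP 4 have no second ALP library in their batch to tie with, and their values of −4.90 and −4.89 lay close to the zero levels of the other ALP libraries, −5.28 and −5.44. In EILP the lowest level of Bcl11b was 3.76, the median 4.43 and the highest 4.92 log2 CPM. In ILCp 1 to ILCp 5 it stood at 8.43, 8.19, 7.34, 8.30 and 8.44. The 3 stages did not overlap for Bcl11b, and the gap between the highest EILP and the lowest ILCp library was 2.42 on the log2 scale. The means were 4.39 ± 0.34 in EILP (SD, n = 7) and 8.14 ± 0.46 in ILCp (n = 5). Overlap of stages was examined for the paralogs alone. How many other genes separate the stages in this way was not tested, so the separation is not set against a background.

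**Figure D1:**
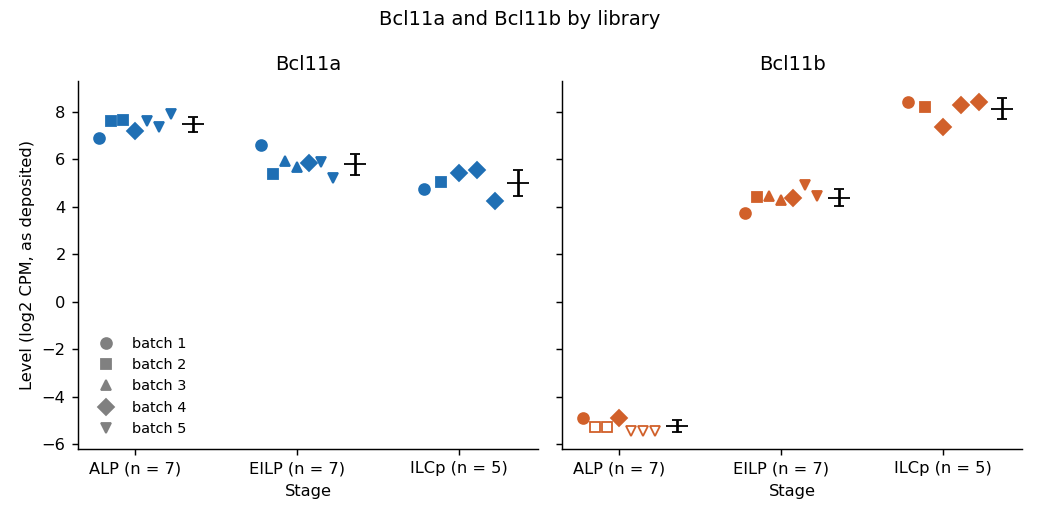
Deposited log2 CPM of Bcl11a and Bcl11b in each library, with the stage on the x axis, the batch as marker shape, open markers for libraries tied at the zero level, and the mean with its SD in black beside the points. Bcl11a steps down from a mean of 7.47 in ALP to 5.00 in ILCp, while Bcl11b goes from the zero level in 5 of 7 ALP libraries to 8.14 in ILCp.

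The comparison of EILP with ALP asks what differs at the first step of the innate lymphoid path. Of all 18607 genes, 5.05% passed the test there (limma, threshold of 0.05 on the adjusted p). Of all genes 2.25% were higher in EILP and 2.79% lower, and both paralogs were among them in opposite directions. Bcl11a, the lymphoid progenitor and B cell paralog, fell by 1.68 ± 0.28 (SE) on the log2 scale, a 3.20-fold lower level in EILP (limma adjusted p = 0.00174, lower in 7 of 7 EILP libraries). Its 95% interval ran from −2.28 to −1.08. Within batches the change of Bcl11a was −0.32 in batch 1, −2.26 in batch 2, −1.36 in batch 4 and −2.06 in batch 5, so the sign was shared by all 4 batches and the size was smallest in batch 1, where EILP 1 had the highest Bcl11a level of its stage. Bcl11b, the T cell paralog, rose in all 7 EILP libraries (limma adjusted p = 4.87e-09). By p it had rank 3 of 18607 genes, and Bcl11a had rank 245. For Bcl11b, 5 of the 7 ALP libraries are tied at the zero level. Its p and rank rest in part on that level and cannot be set against those of Bcl11a. No fold is given for Bcl11b against ALP, since ALP is listed at the zero level. In these bulk libraries, fewer cells with a transcript and less of it per cell cannot be told apart.

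When each library was centred on its median, the median change of all genes from ALP to EILP moved from 0.00 to 0.22, and the genes past the test split into 804 higher and 395 lower in place of 419 and 520. Bcl11a was then lower in EILP by a change of −1.46 (limma adjusted p = 0.00674). Relative to the median gene its change was the same under both scalings to within rounding, because the shift applies to every gene of a library.

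The comparison of ILCp with EILP asks about the second step, and here the test separated the paralogs. Bcl11b rose by 3.75 ± 0.54 (SE) on the log2 scale, which is 13.5-fold (limma adjusted p = 0.00162, higher in 5 of 5 ILCp libraries), in a comparison where 3.21% of genes passed, 1.76% higher and 1.46% lower. Its 95% interval ran from 2.60 to 4.90. The change of Bcl11b within batches was 4.68 in batch 1, 3.76 in batch 2 and 3.65 in batch 4. Bcl11a changed by −0.79 ± 0.33 and did not pass (limma adjusted p = 0.241, unadjusted p = 0.0312), with a 95% interval from −1.50 to −0.08 and changes within batches of −1.84, −0.34 and −0.78 in the same order. Without EILP 1, the only EILP library of batch 1, the change of Bcl11a was −0.45 (limma adjusted p = 0.516). With median centring the genes past the test split into 279 higher and 390 lower in place of 327 and 271, and the changes of Bcl11b and Bcl11a were 3.66 and −0.88. Without a batch term Bcl11a passed in this comparison (limma adjusted p = 0.0324), and with batch as a random effect as well (adjusted p = 0.000335). Both fits met values whose batch means were already equal, and their SEs were smaller, 0.24 and 0.15. Their errors take no account of that earlier adjustment, so these p-values may be too low.

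Between the ends of the path, ILCp versus ALP, both genes passed where 8.24% of genes did, 3.86% higher and 4.39% lower. Bcl11a fell by 2.47 ± 0.32 (SE) on the log2 scale, a 5.54-fold lower level in ILCp (limma adjusted p = 0.000133, lower in 5 of 5 ILCp libraries), with within-batch changes of −2.17, −2.60 and −2.14 in batches 1, 2 and 4. Bcl11b rose in 5 of 5 libraries from the zero level (limma adjusted p = 3.80e-10, rank 2 of 18607 by p). That p and rank rest in part on the zero level as well. The 3 comparisons share libraries, so their values are not independent of each other. With median centring the split over all genes was 813 higher and 584 lower in place of 718 and 816.

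**Figure D2:**
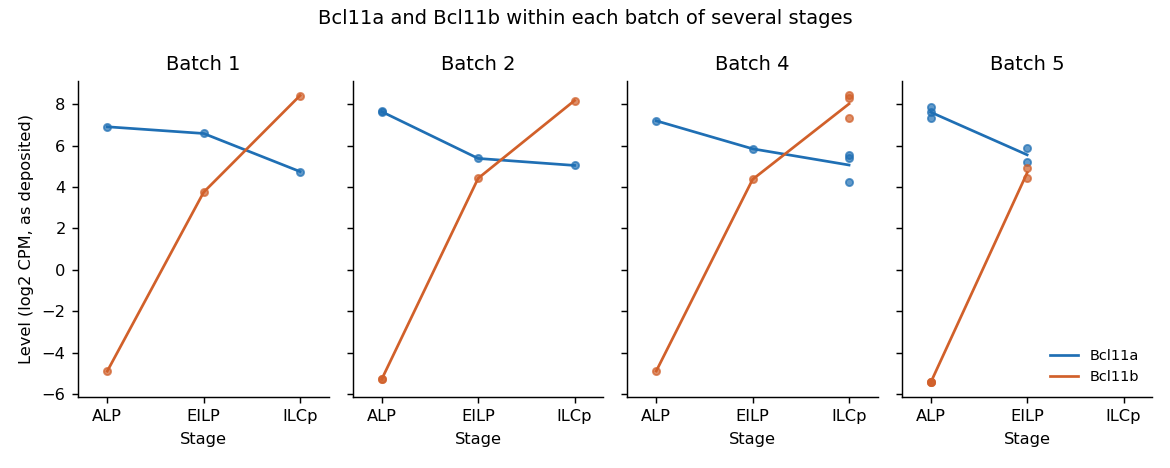
Deposited log2 CPM of Bcl11a (blue) and Bcl11b (orange) by stage in the 4 batches that hold more than 1 stage, with points for libraries and lines through stage means. In each batch Bcl11b climbs and Bcl11a declines, and in batches 1, 2 and 4 the lines cross between EILP and ILCp.

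Because gene length cancels when the change of a within-library difference is followed over stages, the exchange was also read as Bcl11b minus Bcl11a in each library. In ALP the difference ran from −13.34 to −11.82 with a median of −12.92 log2 units, values set in part by the zero level of Bcl11b. In EILP it ran from −2.84 in EILP 1 to −0.77 in EILP 7, with a median of −1.37, so Bcl11a had the higher deposited level in 7 of 7 libraries. In ILCp 1 to ILCp 5 it was 3.68, 3.14, 1.91, 2.76 and 4.21, and Bcl11b had the higher deposited level in 5 of 5 libraries. No stage overlapped with another in this measure, and how often other pairs of genes separate the stages was not tested.

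From ALP to EILP the difference shifted towards Bcl11b (exact permutation test of library labels within batches, two-sided, p = 0.00833, the smallest that its 120 arrangements allow, and 0.025 after Benjamini-Hochberg adjustment over the 3 comparisons). From EILP to ILCp it shifted by 4.93 log2 units over the 3 batches with both stages (exact permutation p = 0.0625, the smallest that 16 arrangements allow, so the design could not reach 0.05). For ILCp versus ALP the exact permutation p was 0.0417, also the smallest possible with 24 arrangements, and 0.0625 adjusted. This comparison was thus below 0.05 only before adjustment. With 1 library left out at a time, its unadjusted p rose above 0.05 without ALP 1, ALP 2, ALP 3, ALP 4 or any 1 of the 5 ILCp libraries. The values then ran from 0.0556 to 0.167, as fewer arrangements remain.

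Per kilobase of annotated exon (13175 bases for Bcl11a and 8111 for Bcl11b), Bcl11a had a mean level of 2.07 ± 0.44 and Bcl11b of 1.37 ± 0.34 log2 CPM per kb in EILP (SD, n = 7). The per-kb difference in EILP was −0.70 ± 0.69, lay between −2.14 and −0.07, and was negative in 7 of 7 libraries. In ILCp the per-kb levels were 1.28 ± 0.53 for Bcl11a and 5.12 ± 0.46 for Bcl11b (n = 5), a difference of 3.84 ± 0.88. Taking instead the transcript with the longest coding sequence (5989 bases for Bcl11a), the difference was −1.84 ± 0.69 in EILP and 2.70 ± 0.88 in ILCp. Thus the order of the paralogs within EILP and within ILCp was the same in these libraries under both lengths, and its size depends on which transcripts are made, which was not measured.

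**Figure D3:**
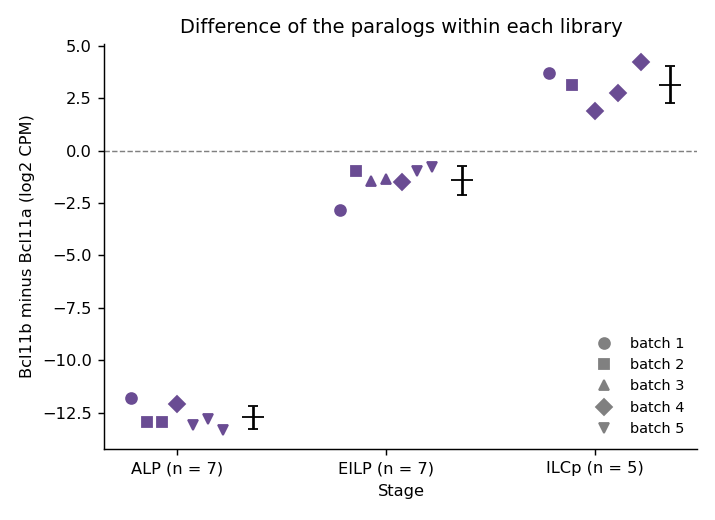
Bcl11b minus Bcl11a in log2 CPM for each library by stage, with the batch as marker shape and the mean with its SD in black; the dashed line marks equal deposited levels. The 7 EILP libraries lie below the line, from −2.84 to −0.77, and the 5 ILCp libraries lie above it, from 1.91 to 4.21.

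The reporter strains meet in batch 4 alone. There Bcl11b stood at 7.34 in ILCp 3 (Tcf7EGFP/+) and averaged 8.37 in ILCp 4 and ILCp 5 (Plzf-cre-GFP/+), while Bcl11a stood at 5.43 and averaged 4.89. In a model over all libraries with ILCp divided by strain, the strain effect was 0.48 ± 0.81 (SE) for Bcl11b and −0.24 ± 0.50 for Bcl11a, and neither passed (limma adjusted p = 1 for both). Its interval was wide, from −1.26 to 2.22 for Bcl11b and from −1.31 to 0.84 for Bcl11a. In the same model 14 of 18607 genes passed. Without the Plzf-cre-GFP libraries, the limma calls of both paralogs were the same in all 3 comparisons.

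Transcription factors known to act on the Bcl11b locus in T cell precursors did not move as 1 block. Of 6 such genes, 2 rose and 1 fell from ALP to EILP, and 1 rose from EILP to ILCp, with list medians of 0.09 and 0.04 against 0.00 and −0.08 over all genes. Of all genes 2.25% rose and 2.79% fell at the first step, and 1.76% rose and 1.46% fell at the second. Gata3, a factor that T cells and ILC2 both need, rose by 5.55 ± 0.39 and then by 2.96 ± 0.46 (SE, limma adjusted p = 2.72e-07 and 0.00249). It was also among the 5 genes whose pattern was most like Bcl11b, though that ranking favours any gene with a steady rise over the stages. Tcf7, which encodes TCF-1, rose by 9.46 ± 1.19 from ALP to EILP (limma adjusted p = 0.000124), though the GFP gate selected for it, so its level is not a finding. Notch1, the receptor that starts T cell commitment, fell by 2.19 ± 0.31 on the log2 scale (limma adjusted p = 0.000414) in the same step in which Bcl11b appeared. Runx1 fell by 1.67 ± 0.40 on the log2 scale from ALP to ILCp (limma adjusted p = 0.0159).

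Complexes through which the BCL11 proteins act had shares of called genes near those of all genes, 5.05% at the first step and 3.21% at the second. Of 23 measured BAF genes, none rose and 2 fell from ALP to EILP, and none rose and 1 fell from EILP to ILCp, with medians of 0.05 and −0.07 against 0.00 and −0.08 over all genes. The ATPase gene Smarca2 fell by 1.71 ± 0.42 on the log2 scale in EILP (limma adjusted p = 0.0249). Arid1b, a DNA-binding subunit, fell by 1.05 ± 0.27 (limma adjusted p = 0.0308). The core subunit gene Smarcb1 fell by 0.72 ± 0.18 in ILCp (limma adjusted p = 0.0461). Of 20 NuRD and corepressor genes none passed from ALP to EILP (median 0.11), and from EILP to ILCp the corepressor gene Ncor1 alone passed, with a rise of 0.83 ± 0.21 (limma adjusted p = 0.0436, list median 0.00).

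Genes that BCL11B is known to hold down in T cells were followed next. Of 13 such genes, 8 rose and none fell from ALP to EILP (median 2.96), where 2.25% of all genes rose and 2.79% fell (median 0.00). From EILP to ILCp, where Bcl11b rose 13.5-fold, 2 rose and 2 fell (median −0.49), beside 1.76% and 1.46% of all genes (median −0.08). Id2, an inhibitor of E proteins, rose at both steps, by 4.58 ± 0.23 and 1.53 ± 0.28 (SE, limma adjusted p = 1.09e-08 and 0.00729). Zbtb16, which encodes PLZF, rose by 9.37 ± 0.95 in EILP (limma adjusted p = 1.43e-05) and stood at 6.97 ± 1.01 in EILP and 6.48 ± 0.76 in ILCp (SD, n = 7 and 5). From EILP to ILCp, Nfil3, a leucine zipper factor of ILC and natural killer cells, fell by 2.36 ± 0.40 on the log2 scale (limma adjusted p = 0.00501). Cdkn1a, the cell cycle inhibitor p21, fell by 1.73 ± 0.31 (limma adjusted p = 0.00729). Nfil3 and Cdkn1a had both been among the 8 genes that rose from ALP to EILP. In ALP, EILP and ILCp, Nfil3 averaged 5.23, 8.19 and 5.83 log2 CPM, and Cdkn1a 5.18, 6.98 and 5.25. Whether Bcl11b acted on the genes of this list was not tested. Kit and Il2rb of this list were used in the sort, and Zbtb16 drives the GFP by which ILCp 4 and ILCp 5 were sorted.

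Genes of mature cells that use BCL11B were compared as well. Of 18 measured T lineage genes, 4 rose from ALP to EILP (median 2.19, with 1 group or both at the zero level in 7 of them), and none passed from EILP to ILCp (limma, median 1.17). Among all genes 2.25% rose at the first step and 3.21% passed at the second (medians 0.00 and −0.08). The 4 that rose were Trbc1, Trbc2, Themis and Trat1, genes of the T cell receptor β chain and of T cell signalling. Trbc1 rose by 11.19 ± 0.84 (limma adjusted p = 5.78e-07). Themis, at the zero level in ALP, had 4.89 ± 0.74 log2 CPM in EILP (SD, n = 7). The summed level of the 18 genes was 231 to 724 CPM in ALP, 490 to 936 in EILP and 876 to 2423 in ILCp. Cd3d, Cd3e and Cd3g, which define T cells, were at the zero level in ALP, a call that does not cover ALP 1 and ALP 4. In EILP they averaged −1.54 ± 2.92, −0.64 ± 3.08 and 0.21 ± 2.98, whereas Trbc1 had 7.69 ± 0.26 there. In ILCp these 3 genes stood at 0.62 ± 1.55, −2.62 ± 2.23 and 1.99 ± 3.68, and Cd4 and Cd8a were at the zero level in EILP. From ALP to ILCp 6 of the 18 genes rose (limma), namely Cd3d, Cd3g and the 4 named above, beside 3.86% of all genes. The part of T cells in the Bcl11b level was not tested.

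Of 12 measured ILC2 genes, 4 rose from ALP to EILP and 3 from EILP to ILCp (medians 0.07 and 2.97, with a group at the zero level in 6 and 4 of them). At these steps 2.25% and 1.76% of all genes rose (medians 0.00 and −0.08). The nuclear receptor gene Rora rose by 7.33 ± 0.94 in EILP (limma adjusted p = 0.000144), and the costimulator gene Icos by 6.93 ± 1.25 in ILCp (adjusted p = 0.00709). Of 9 ILC3 genes, 2 rose and then 3 rose, among them Cxcr5, a chemokine receptor gene, by 7.26 ± 0.86 in EILP (limma adjusted p = 6.68e-05). Bcl11b thus rose in the same steps as some genes of both lists. At the first step 8 of 12 ILC2 and 7 of 9 ILC3 genes did not pass, and at the second 9 and 6. Gata3 is counted here and among the factors that act on Bcl11b.

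Genes of the cells in which BCL11A is used were compared in the same way. Of 17 lymphoid progenitor genes 9 fell and none rose from ALP to EILP (median −1.59), beside 2.79% of all genes that fell and 2.25% that rose. From EILP to ILCp 2 fell and 1 rose (median −0.23), beside 1.46% and 1.76% of all genes. Il7r, which encodes IL-7Rα, was among the 9 that fell and was the 1 that rose, and the stages were sorted on it. Flt3 of this list was used in the sort of ALP as well. Cd93, a surface protein of early progenitors, fell by 1.59 ± 0.22 on the log2 scale in EILP (limma adjusted p = 0.000257). Mef2c, a factor of lymphoid progenitors, fell by 1.33 ± 0.32 on the log2 scale from EILP to ILCp (limma adjusted p = 0.0364). Of 13 genes of plasmacytoid dendritic cells, 7 fell and none rose from ALP to EILP (median −1.19), and 4 fell and none rose from EILP to ILCp (median −1.31). The shares over all genes at these steps are those given above. Tcf4, the E protein that directs plasmacytoid dendritic cells, fell by 1.76 ± 0.20 on the log2 scale in EILP (limma adjusted p = 4.85e-05). Runx2 fell by 2.03 ± 0.31 on the log2 scale from EILP to ILCp (adjusted p = 0.00226). The summed level of these 13 genes was 1578 to 2721 CPM in ALP, 945 to 1603 in EILP and 350 to 680 in ILCp, so it moved with Bcl11a, and its part in the Bcl11a level was not tested.

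Of 15 measured B lineage genes 5 fell and none rose from ALP to EILP (median −3.19, with a group at the zero level in 5), and none passed from EILP to ILCp (limma, median −0.38). For this list and those below, 2.25% of all genes rose and 2.79% fell at the first step. At the second step 1.76% rose and 1.46% fell. Blk, a kinase of B cells, fell by 7.78 ± 1.47 on the log2 scale (limma adjusted p = 0.00407). Pax5, which defines B cells, was at the zero level in ALP, EILP and ILCp, whereas Blk had 3.97 ± 2.29 and the adaptor gene Blnk 5.83 ± 0.50 log2 CPM in ALP (SD, n = 7). Summed B lineage levels were 190 to 657 CPM in ALP, 65.5 to 117 in EILP and 97.7 to 292 in ILCp, and the part of B lineage cells in the Bcl11a level was not tested. Globin genes, of which 5 of 9 listed were measured, did not pass at either step (limma). Their medians were 2.93 from ALP to EILP and −0.47 from EILP to ILCp, with a group at the zero level in 1 of them. Of 10 survival and p53 genes, Bcl2, which blocks apoptosis, rose in EILP by 1.83 ± 0.25 (limma adjusted p = 0.000244) and none passed from EILP to ILCp. Myeloid genes, a check for other cells in the sort, summed to 617 to 6428 CPM in ALP, 1707 to 42480 in EILP and 161 to 2006 in ILCp, the highest EILP value being that of EILP 2. Of 12 such genes Cebpe rose from ALP to EILP, and Mpo, Prtn3 and Cebpe fell from EILP to ILCp (limma, medians 1.49 and −3.26). The part of myeloid cells in the levels of the paralogs was not tested, and without EILP 2 the limma calls of both paralogs were the same in all 3 comparisons.

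**Figure D4:**
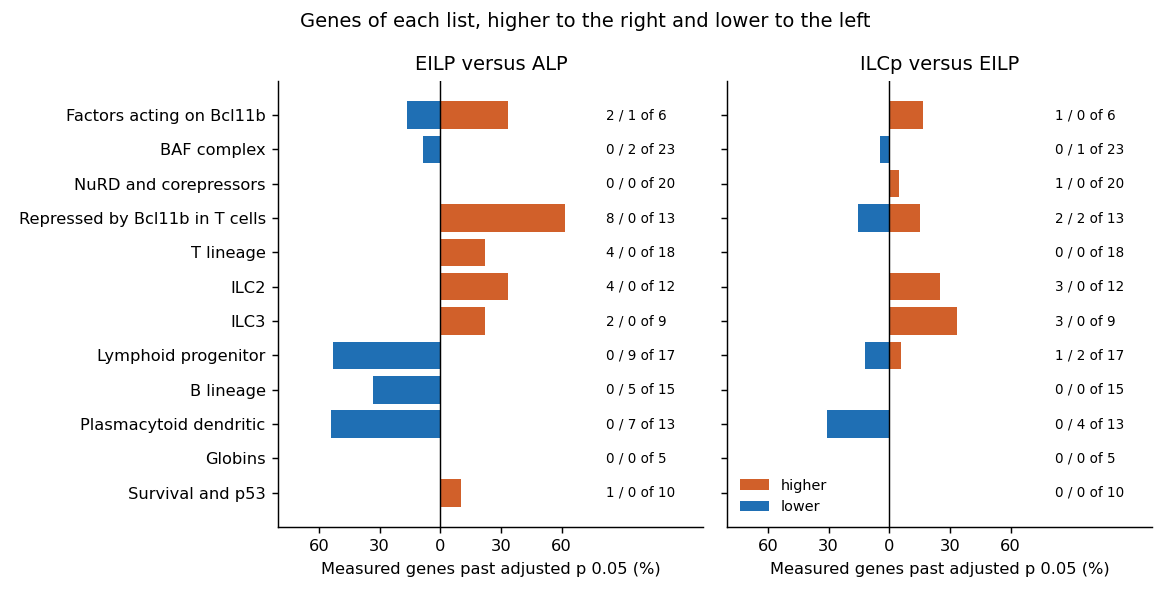
Share of the measured genes of each list that passed an adjusted p of 0.05 in limma, higher (orange, right) or lower (blue, left), for EILP versus ALP and ILCp versus EILP, with the counts beside the bars as higher / lower of measured. The lymphoid progenitor and plasmacytoid dendritic lists go down at the first step with 9 of 17 and 7 of 13 genes, and 8 of 13 genes of the list repressed by Bcl11b in T cells go up. Of all genes 2.79% were lower and 2.25% higher at that step.

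Among the 9351 genes with a mean above 2 log2 CPM, the patterns most like each paralog were sought by Pearson correlation over the 19 libraries, which share stages and so follow any gene with a steady change over them. The 5 genes most like Bcl11a were H2-DMa (r = 0.974), which loads peptide onto MHC class II, Cd93 (0.953), 2310022B05Rik (0.942), the glycosyltransferase gene Mgat1 (0.941) and Ramp1 (0.930), a partner of calcitonin-family receptors. The means of H2-DMa were 8.46 ± 0.21, 7.29 ± 0.25 and 6.57 ± 0.28 along the path (SD, n = 7, 7 and 5). The 5 most like Bcl11b were the T cell receptor γ constant gene Tcrg-C4 (0.994), the retinoid X receptor gene Rxrg (0.992), Id2 (0.992), the T cell receptor β joining segment Trbj1-1 (0.984) and Gata3 (0.981). Rxrg and Id2 were also among the 3 genes most opposed to Bcl11a (r = −0.944 and −0.943), beside Bin2 (−0.950). Mgat1 and Ramp1 were in turn among the 3 most opposed to Bcl11b (−0.973 and −0.970), beside the actin-binding gene Cnn3 (−0.980). The neighbours of Bcl11b differed in where they started, since Id2 had 4.82 ± 0.46 and Gata3 1.55 ± 0.73 log2 CPM in ALP, while Tcrg-C4 and Rxrg were at the zero level there with Bcl11b. Tcrg-C4, Rxrg, Gata3 and Trbj1-1, whose ALP mean was −4.27, passed the filter on the mean only through EILP and ILCp. Their r values with Bcl11b, and that of Rxrg with Bcl11a, rest in part on the low ALP levels. Bcl11b itself has a mean below that filter.

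**Figure D5:**
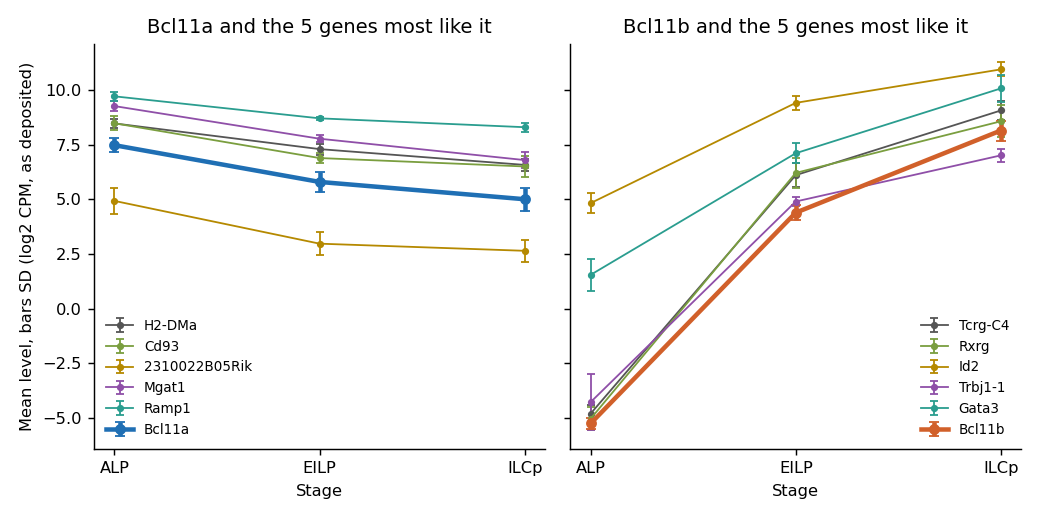
Mean deposited log2 CPM by stage, with SD over libraries as bars, for Bcl11a (left) and Bcl11b (right) and the 5 genes with the highest Pearson correlation to each over the 19 libraries. The neighbours of Bcl11a take their larger step from ALP to EILP, as Bcl11a does with means of 7.47, 5.79 and 5.00, and those of Bcl11b climb at both steps.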

How the data were processed

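RNA of the sorted cells was purified on RNeasy plus micro columns and amplified with the SMARTer Ultra Low v3 kit; libraries were made with Nextera XT, per the labels' protocols. Per the submitters' processing notes bcl2fastq 1.8.4, STAR 2.4.0h, edgeR, limma and build mm10 were used, with no role or order given. How reads were counted, on which annotation, is not given in the sources used here. Values are log2 CPM as deposited by the authors, in 19 sample columns beside 9 empty ones.

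Libraries were grouped by title. The gene tests used limma 3.58.1 under R 4.3.3 (moderated, mean-variance trend, two-sided, batch as a fixed effect, all 19 libraries, Benjamini-Hochberg over 18607 genes), a procedure tested on simulated data. Those simulated data held no batch effects, no earlier batch adjustment and no tied zero levels, so that test does not cover these features. A stage was called at the zero level of a gene where its libraries in batches with at least 2 of that stage were tied at the batch's lowest value (tolerance 1e-06). The within-library difference of the paralogs was tested by exact permutation within batches. Coding sequences were aligned with Biopython 1.88. Named genes were the paralogs, from each of 14 lists the 2 genes at most that rose and the 2 that fell (174 of 186 listed genes measured) with the smallest p in a comparison, and the 5 most alike and 3 most opposed genes; Cd3d, Cd3e, Cd3g, Cd4, Cd8a, Pax5, Trbc2, Trat1, Il2rb, Mpo and the antisense genes were added after their values were seen. The members and lists were chosen with earlier results of these data known. The other settings tried were the batch term, the libraries and variance model used, the scaling, a filter on low levels, and each library left out. A further one, ALP 7 and EILP 2 left out together, was chosen after seeing the data. Protein sequences were not used here, and some listed genes are not reported here by name.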

Additional observations from a re-analysis of the deposited data

Results flagged for a closer look

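Gaps within a stage were examined for 9 groups of values (Bcl11a, Bcl11b and their difference in each stage), a check that chance alone passes in about 1 of 20 groups. Bcl11b in ILCp 3 was 7.34 log2 CPM, set apart from the other ILCp libraries by 0.772 of the stage's range. ILCp 3 is the Tcf7EGFP/+ library of batch 4, and without it the rise of Bcl11b from EILP to ILCp still passed. It also had the highest summed myeloid and plasmacytoid dendritic levels of its stage, 2006 and 680 CPM against medians of 444 and 491. The highest T and B lineage sums of the stage were those of ILCp 2. Whether any of these traits bears on its Bcl11b level was not tested. The difference Bcl11b minus Bcl11a in EILP 1 was −2.84, the lowest of its stage, with a gap of 0.659 of the range. That library had both the highest Bcl11a level (6.59) and the lowest Bcl11b level (3.76) of the 7 EILP libraries.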

How the results depend on the processing

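Of 183 fold changes of Bcl11a and Bcl11b under 31 other settings, none turned sign and 181 stayed on their side of the threshold. The exceptions were Bcl11a from EILP to ILCp, at −0.79 without a batch term and with batch as a random effect, both past the threshold (limma adjusted p = 0.0324 and 0.000335). Both fits take no account of the batch adjustment already in the values, so these p-values may be too low. With a library left out the change of Bcl11a from EILP to ILCp ran from −0.94 to −0.45 (without EILP 1), with limma adjusted p from 0.185 to 0.516. The filter on low levels (9304 genes kept) removed Bcl11b and gave it no value.

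The paralog difference shifted by 4.54 from EILP to ILCp with labels permuted over all libraries (exact permutation p = 0.00126). That permutation takes no account of the batch adjustment already in the values, so this p-value may be too low. For this step the exact permutation p was 0.0625 in the main test within batches and 0.0625 with the replicate block. Without Plzf-cre-GFP libraries, where fewer arrangements remain, it was 0.25. From ALP to ILCp the main exact permutation p was 0.0417 unadjusted and 0.0625 adjusted. The unadjusted p was 0.0833 at a shift of 15.3 without Plzf-cre-GFP libraries, and 0.0625 at 15.7 with the replicate block. With a library left out the shift was 15.2 to 15.8. These sizes rest in part on the zero level.

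In fits without batch as a fixed effect, the errors take no account of the batch adjustment already in the values. Their counts may therefore be too high. Counts of genes past the threshold moved by over 1.5 times as follows. EILP versus ALP: 939 became 2551 without a batch term, 1613 with the replicate block and 3391 with batch as a random effect. ILCp versus EILP: 598 became 3047, 1484 and 8201 in that order, 183 with the 2 groups alone, 233 in batches holding both, 254 without Plzf-cre-GFP libraries, 280 without trend and 309 without ALP 7 and EILP 2 together, with 224 to 624 when a library was left out (224 without EILP 5, 316 without ILCp 2, 355 without EILP 2, 384 without ILCp 1). ILCp versus ALP: 1534 became 3856, 2362 and 11612, then 772 with the 2 groups alone, 855 in batches holding both and 1012 without Plzf-cre-GFP libraries, with 920 (without ILCp 2) to 1584 when a library was left out. The replicate numbers did not pair the libraries: deviations of 17 same-numbered pairs correlated between −0.64 and 0.116, and 1 of 17 correlated best with its own number. The block changed no limma call of either paralog.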
